A study of Mus musculus with 447 samples.

Results

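The immediate early genes examined were 10 genes chosen by name and not by level: Fos, Fosb, Jun, Junb, Jund, Egr1, Ier2, Atf3, Dusp1 and Btg2. All 10 were found by symbol among the 40818 genes of both deposited matrices. The cells were single GFP-positive cells of mouse fetal pancreas at stage E15.5, sequenced by Smart-seq3, a plate method that captures polyadenylated RNA of individually sorted cells. The genotype labels were Pdx1CreNgn3KONeurod1OE, here Ngn3KO (235 cells), and Pdx1CreNeurod1OE, here Neurod1OE (212 cells), so both genotypes carry added Neurod1 and they differ by the loss of Ngn3 (Neurog3). Per the series' design text the Cre is driven by Pdx1 and inducible, and the Ngn3 allele is floxed. Pdx1 marks early pancreatic progenitors, from which acinar, duct and endocrine cells all descend. The titles number the cells within a set 3 (30 Ngn3KO and 95 Neurod1OE cells) and a set 2, which holds the remaining 322 cells, and each set is a matrix of its own. No animal, litter or plate is named, so each genotype is 1 sample in each set. No test between genotypes was possible, and cells were not treated as replicates of a genotype. Wild-type cells were not analysed here.

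Immediate early genes are induced within minutes of a stimulus, without new protein synthesis, mostly through kinase cascades that act on factors already bound at their promoters. Fos and Fosb pair with Jun, Junb or Jund to form AP-1, a transcription factor that binds a short palindrome. Growth factors, depolarisation, stress and the handling of dissociated tissue are all known to induce them.

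The total count per cell ran from 25769 to 2787999 reads, with medians of 344128 in Ngn3KO and 572730 in Neurod1OE cells of set 2, and 728074 in Ngn3KO and 695079 in Neurod1OE cells of set 3. Levels are given as CPM, counts scaled to 1e+06 reads of a cell or, for a group, of the summed reads of its cells. They are not corrected for gene length, so levels are compared within a gene. The exceptions are sums over genes and counts of genes at a fixed level, in which abundant genes weigh most, among the members Btg2. Neurog3 was at 3.06 CPM in Ngn3KO and 3.89 CPM in Neurod1OE cells of set 2, too low in both to check the deletion, and at 3.72 CPM in Ngn3KO and 17.8 CPM in Neurod1OE cells of set 3. Neurod1 was at 292 CPM in Ngn3KO and 332 CPM in Neurod1OE cells of set 2. In set 3 it was at only 30.4 CPM in the cells labelled Ngn3KO, against 217 CPM in Neurod1OE cells, a low level for cells whose label includes added Neurod1. Cells were called Gcg-high or Cpa1-high at 1000 CPM or more of glucagon or of the acinar enzyme carboxypeptidase A1, and "neither" below both. In set 2 all but 4 Ngn3KO and 6 Neurod1OE cells were Gcg-high. In set 3, 29 of 30 Ngn3KO cells were Cpa1-high, against 15 of 95 Neurod1OE cells, of which 31 were Gcg-high, 1 was both and 48 were neither. The set 3 levels of Neurog3 given above therefore compare unlike cell states. Among Cpa1-high cells of set 3 Neurog3 was at 3.85 CPM in Ngn3KO and 0.114 CPM in Neurod1OE. In the Neurod1OE cells with neither marker it was at 37.8 CPM.

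Promoter sequence was available for 8 of the 10 genes, and 5 promoters are shown: those of Fos, Jun and Junb, AP-1 subunits that carry contrasts described here, and those of Btg2 and Dusp1, which hold the full cAMP response element, a site through which several immediate early genes are induced. The windows run from 250 bases before to 50 bases after the annotated start in RefSeq on GRCm38.p6 (mm10), written along the gene's strand. Capitals mark the core element TGACGT, the full palindrome TGACGTCA where its last bases are present, and the TATA box TATAAA. The first 3 lie at chr12:85473640-85473939 (plus strand) for Fos, chr1:134079106-134079405 (minus strand) for Btg2 and chr17:26508423-26508722 (minus strand) for Dusp1.
Fos: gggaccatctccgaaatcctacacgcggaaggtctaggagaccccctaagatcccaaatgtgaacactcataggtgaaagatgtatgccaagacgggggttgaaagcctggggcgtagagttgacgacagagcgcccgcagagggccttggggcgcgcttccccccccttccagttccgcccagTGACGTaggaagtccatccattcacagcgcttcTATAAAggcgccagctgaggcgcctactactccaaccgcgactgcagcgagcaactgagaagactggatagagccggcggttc
Btg2: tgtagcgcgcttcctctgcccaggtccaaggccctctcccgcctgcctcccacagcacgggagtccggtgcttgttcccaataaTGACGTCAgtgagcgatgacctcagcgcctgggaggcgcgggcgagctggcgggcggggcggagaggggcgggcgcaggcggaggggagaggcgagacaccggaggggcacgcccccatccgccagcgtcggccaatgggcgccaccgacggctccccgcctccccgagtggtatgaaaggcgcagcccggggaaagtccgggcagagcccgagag
Dusp1: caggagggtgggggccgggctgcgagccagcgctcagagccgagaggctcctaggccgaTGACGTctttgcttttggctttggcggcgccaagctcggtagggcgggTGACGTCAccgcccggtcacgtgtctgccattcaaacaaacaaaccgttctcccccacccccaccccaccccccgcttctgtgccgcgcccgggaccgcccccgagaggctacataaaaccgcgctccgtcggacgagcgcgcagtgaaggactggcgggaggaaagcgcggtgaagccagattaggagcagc
The Jun window lies at chr4:95052173-95052472 (minus strand) and holds none of these motifs on either strand. The Junb window lies at chr8:84978699-84978998 (minus strand) and holds TATAAA at its annotated start.
Jun: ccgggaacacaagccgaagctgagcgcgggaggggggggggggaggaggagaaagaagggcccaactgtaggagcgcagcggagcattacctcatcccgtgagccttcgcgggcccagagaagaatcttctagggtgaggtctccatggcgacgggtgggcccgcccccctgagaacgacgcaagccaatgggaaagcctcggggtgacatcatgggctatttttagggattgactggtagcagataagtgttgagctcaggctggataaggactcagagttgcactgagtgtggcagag
Junb: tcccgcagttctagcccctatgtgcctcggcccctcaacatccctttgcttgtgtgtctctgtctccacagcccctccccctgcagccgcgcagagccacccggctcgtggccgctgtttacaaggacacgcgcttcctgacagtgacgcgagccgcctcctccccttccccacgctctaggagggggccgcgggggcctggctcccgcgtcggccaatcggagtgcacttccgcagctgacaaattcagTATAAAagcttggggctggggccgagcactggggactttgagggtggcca
Searched on both strands, TGACGT was present in 4 of the 8 promoters (Fos, Btg2, Dusp1 and Atf3), against 7.51% of 32851 mouse promoter windows of the same length. The full TGACGTCA, which contains TGACGT, was present in 2 (Btg2 and Dusp1), against 1.79% of all windows. TATAAA stood in the windows of Fos and Junb, and in 13.6% of all windows. The AP-1 site TGANTCA was in 0 of the 8 windows, against 7.81% of all. These matches describe the windows and are not measurements of factor binding.

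The 10 genes differed widely in how evenly cells expressed them. Btg2, an antiproliferative adaptor of the BTG/TOB family, had reads in 100% of the Ngn3KO and 100% of the Neurod1OE cells of set 2, and in every cell of set 3. Jund, the AP-1 subunit known for steady rather than inducible expression, had reads in 95.1% of Ngn3KO and 95.7% of Neurod1OE cells of set 2, and its largest contribution by a single cell was 3.45% of the Ngn3KO reads. The inducible genes were patchy. Egr1, a zinc finger transcription factor, had reads in 83.4% of Ngn3KO and 86.3% of Neurod1OE cells of set 2, but reached 50 CPM in only 49.8% and 64.96% of them. Fosb, the rarer Fos paralogue, had reads in 29.3% of Ngn3KO and 41.9% of Neurod1OE cells, and Dusp1, a phosphatase that switches off MAP kinases, in 41.5% and 42.7%. For both the median cell of set 2 held no read in either genotype, so their summed levels rest on a minority of cells.

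**Figure D1:**
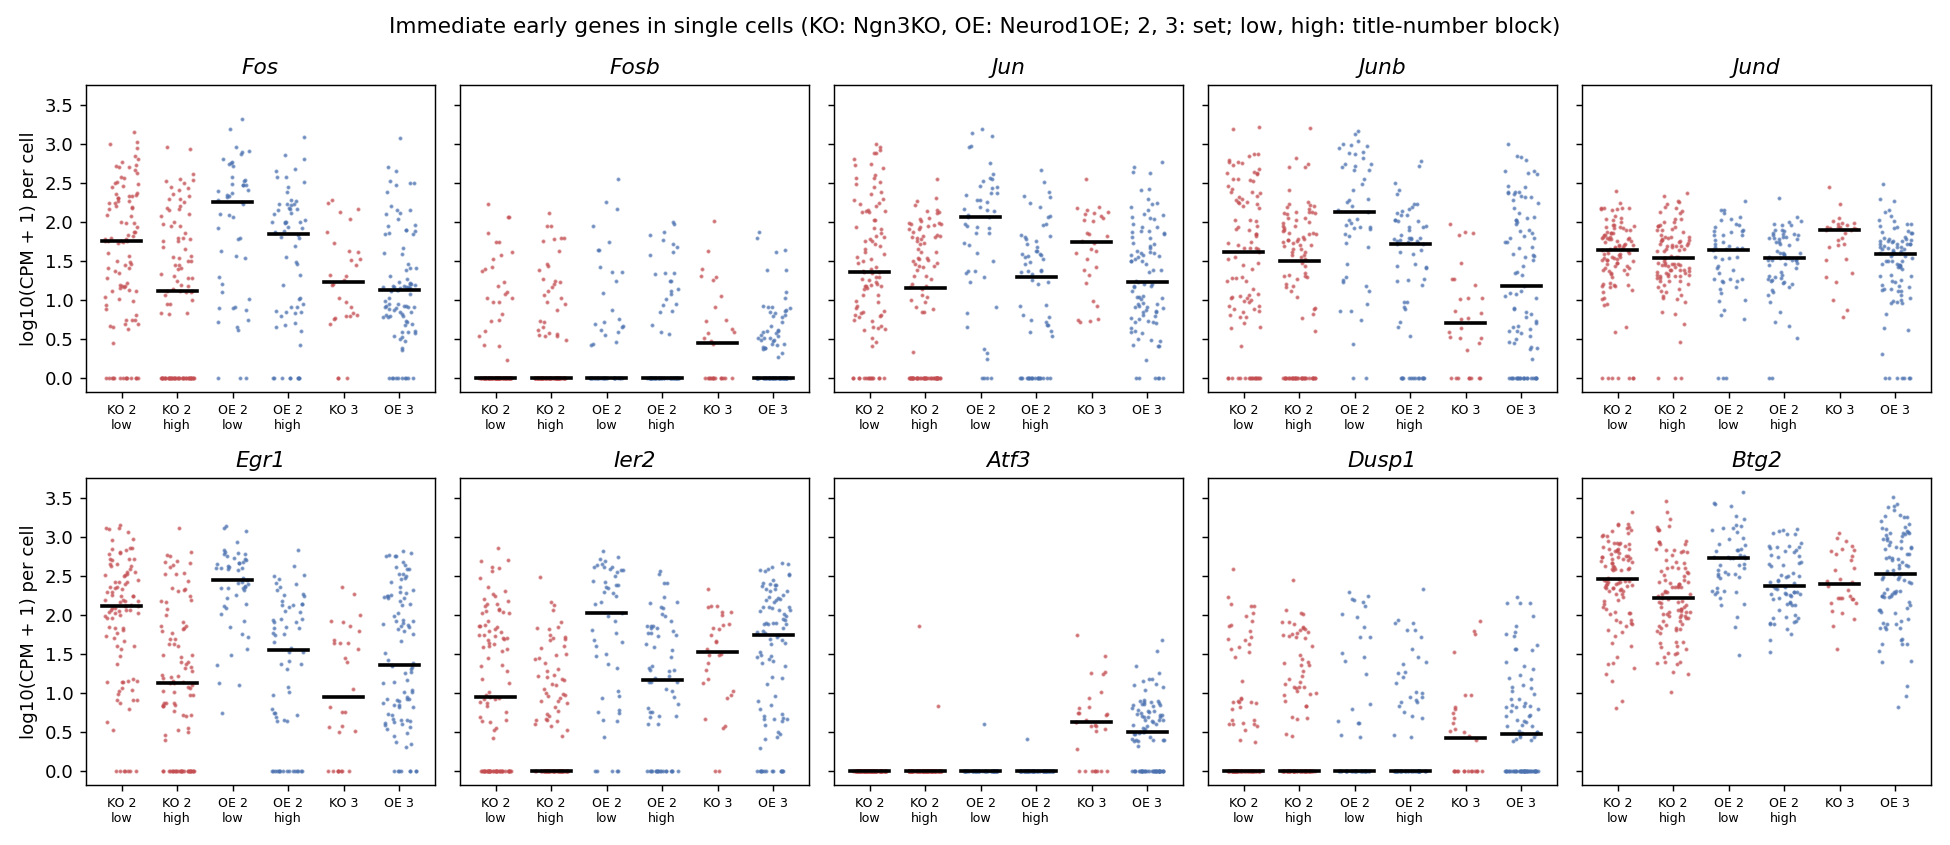
Each point is 1 cell, plotted as log10(CPM + 1) for each of the 10 genes, in Ngn3KO (KO, red) and Neurod1OE (OE, blue) cells of the low and high title-number blocks of set 2 and of set 3, with a bar at the median. Jund and Btg2 form a single band in every group, whereas Fos, Jun, Junb, Egr1 and Ier2 spread from 0 upwards over a wide range and shift between blocks, and Atf3 has reads in set 3 almost alone.

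In set 2 Ngn3KO cells had less Ier2 than Neurod1OE cells, and most other members differed by less in the same direction. Ier2, an immediate early nuclear protein, was the only one of the 9 measured members at least 2-fold apart. Of the 10009 measured genes, 1.67% lay 2-fold or more below their Neurod1OE level and 0.859% as far above it; a gene counted as measured at 10 CPM or more with reads in 10% of the cells of either group. The lowest, median and highest Ier2 levels were 0, 3.59 and 709 CPM in Ngn3KO cells, against 0, 30.6 and 665 CPM in Neurod1OE cells. The single-cell ranges overlapped throughout, and the difference lay in the middle of the distribution: 21.95% of Ngn3KO and 44.4% of Neurod1OE cells reached 50 CPM. The summed level was 41.3 CPM in Ngn3KO (95% exact Poisson interval 39.9 to 42.7) and 109.5 CPM in Neurod1OE (107.1 to 111.9), a log2 ratio of -1.39 after adding 1 CPM. These intervals cover counting error only, and no interval given here covers the spread between animals.

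The other 8 measured members fell short of 2-fold in set 2. Fos had a lowest, median and highest level of 0, 24.04 and 1388 CPM in Ngn3KO cells and 0, 85.1 and 2073 CPM in Neurod1OE cells, with a log2 ratio of the sums of -0.74. Log2 ratios were -0.80 for Fosb, -0.79 for Jun, -0.72 for Junb and -0.43 for Egr1. Dusp1 stood at -0.32 and Btg2 at -0.30, and Jund alone was above 0, at 0.14. The members' median log2 ratio was -0.72, against -0.07 over all measured genes. By the median cell rather than the sum, Fos, Jun, Egr1 and Ier2 were all more than 2-fold lower in Ngn3KO cells. Ngn3KO cells of set 2 were shallower. After each cell was thinned to 165298 reads, with 31 Ngn3KO and 2 Neurod1OE cells below that depth left out, Ier2 was read in 53.4% of Ngn3KO and 72.2% of Neurod1OE cells. Before thinning these shares were 56.6% and 80.3%.

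Set 2 was not uniform. The pseudogene Gm12338 divides the cells of each genotype by the number in their title, just past number 100 in Ngn3KO (5 cells on the other side) and at 51 in Neurod1OE (0 cells), and these ranges are called the low and the high block. What the blocks stand for is not stated. By Xist and Y-linked genes all called Ngn3KO cells of both blocks were female, while in Neurod1OE 50 of 51 low-block cells were male and 65 of 66 high-block cells female, with 1 uncalled. The median number of detected genes was 7096 in the low and 7653.5 in the high block of Ngn3KO cells, and 7543 in the low and 8335 in the high block of Neurod1OE cells. The part of these measures in the results was not tested.

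Within each block Ier2 remained more than 2-fold lower in Ngn3KO. In the low block it was at 60.5 CPM in Ngn3KO and 165.5 CPM in Neurod1OE cells (log2 ratio -1.44), and its median cell was at 7.78 CPM and 105.8 CPM. In the high block it was at 18.3 CPM in Ngn3KO and 51.7 CPM in Neurod1OE cells (log2 ratio -1.45), with median cells at 0 and 13.7 CPM. In the low block Ier2 and Junb were the 2 of 9 measured members at least 2-fold lower, where 4.39% of genes were, and 0 were higher (3.45% of genes). In the high block Ier2 alone was lower (3.42% of genes) and 0 were higher (1.33% of genes). Among Gcg-high cells alone the log2 ratio of Ier2 was -1.41 in the low and -1.20 in the high block. When female cells alone were compared, which sets Ngn3KO cells of both blocks against Neurod1OE cells almost entirely of the high block, Ier2 was at -0.24, Junb at 0.86 and Egr1 at 0.92, and the members' median was 0.22.

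Junb and Dusp1 gave different values in the blocks. Junb was at 139.6 CPM in Ngn3KO and 291 CPM in Neurod1OE cells of the low block, a log2 ratio of -1.05, and at 70.2 and 61.9 CPM in the high block, a log2 ratio of 0.18. Dusp1 had log2 ratios of -0.85 in the low and 0.52 in the high block. With 1 sample a group these differences between blocks were not tested. For Fos the log2 ratio was -0.76 in the low and -0.82 in the high block, and for Jun -0.93 and -0.56, so both kept their sign. Jund was near 0 in both, at 0.23 and 0.00. The high-block value of Jun leaned on 1 Neurod1OE cell that passed both marker gates. Jun was at 35.3 CPM in Ngn3KO and 52.5 CPM in Neurod1OE over all cells of that block. Among its Gcg-high cells these levels were 35.3 and 39.7 CPM. In the comparison of female cells, which mixes blocks, Jun was higher in Ngn3KO, at 73.5 CPM against 62.5 CPM.

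**Figure D2:**
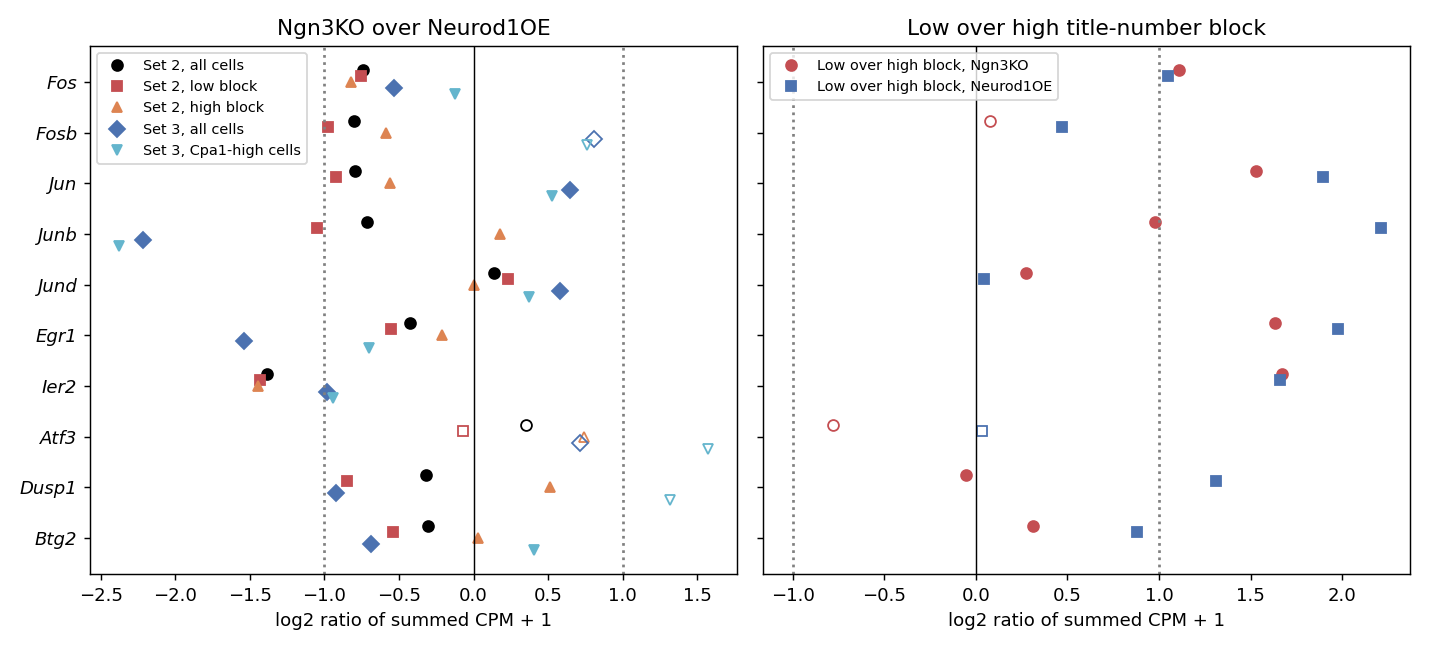
Log2 ratio of the summed CPM, with 1 CPM added, for each gene: Ngn3KO over Neurod1OE on the left and the low over the high title-number block on the right. Dotted lines mark 2-fold and open symbols mark genes below the level called measured; Ier2 lies between -1.45 and -1.39 in the 3 set 2 comparisons, Junb lies at -2.22 and -2.38 in set 3, and on the right Jun, Egr1 and Ier2 lie above 1 in both genotypes while Jund lies near 0.

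Within set 2 Egr1, Jun, Ier2 and Fos were also higher in the low than in the high title-number block of both genotypes. In Ngn3KO cells 4 of 8 measured members were at least 2-fold higher in the low block, where 6.84% of all measured genes were, and 0 were lower (5.14% of genes). In Neurod1OE cells 6 of 9 were higher, where 6.98% of genes were, and 0 were lower (7.19% of genes). The members' median log2 ratio of low over high block was 1.05 in Ngn3KO and 1.31 in Neurod1OE, against 0.03 and 0.04 over all measured genes.

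Egr1 showed the contrast most evenly over cells. In Ngn3KO its lowest, median and highest levels were 0, 128.9 and 1431 CPM in the low block, against 0, 12.3 and 1309.6 CPM in the high block. In Neurod1OE they were 4.49, 281 and 1381 CPM in the low block, against 0, 34.9 and 676 CPM in the high block. The ranges overlapped, but 69.9% of low-block and 29.4% of high-block Ngn3KO cells reached 50 CPM, as did 88.2% and 46.97% of Neurod1OE cells. The log2 ratio of the sums was 1.63 in Ngn3KO and 1.98 in Neurod1OE.

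Jun, Ier2 and Fos followed. Jun summed to 103.8 CPM in the low and 35.3 CPM in the high block of Ngn3KO cells, and to 198.1 and 52.5 CPM in Neurod1OE cells, log2 ratios of 1.53 and 1.90. Its median cell was at 21.8 CPM in the low and 13.1 CPM in the high block of Ngn3KO cells, and at 112.5 and 18.7 CPM in Neurod1OE cells. Ier2 had log2 ratios of 1.67 in Ngn3KO and 1.66 in Neurod1OE, nearly equal values in the 2 genotypes. Fos had 1.11 and 1.05, just past 2-fold in both, and 1.11 and 0.99 among Gcg-high cells. Junb was higher by 2.21 in Neurod1OE and by 0.98, just under 2-fold, in Ngn3KO. Dusp1 was higher by 1.31 in Neurod1OE and at -0.05 in Ngn3KO. Jund was at 0.27 in Ngn3KO and 0.04 in Neurod1OE and Btg2 at 0.31 and 0.88, all short of 2-fold. Fosb was at 0.47 in Neurod1OE and, below the level called measured, at 0.08 in Ngn3KO. By summed reads, markers of acinar cells moved in opposite directions in the genotypes. Of those measured, 2 of 4 were at least 2-fold higher in the low block of Ngn3KO and 6 of 7 lower in that of Neurod1OE. The 12 acinar markers summed to 128.5 CPM in the low and 107.5 CPM in the high block of Ngn3KO, and to 168.7 and 925 CPM in Neurod1OE. In the median cell their sum was lower in the low block of both genotypes. It was at 47.6 CPM in the low and 76.8 CPM in the high block of Ngn3KO, and at 22.4 and 71.3 CPM in Neurod1OE. The highest cells were at 5744 and 1710 CPM in Ngn3KO, and at 2026 and 10792 CPM in Neurod1OE. The part of the acinar markers in the members' contrast was not tested. Malat1, an abundant nuclear non-coding RNA, moved with the contrast in both genotypes: it was at 13371 CPM in the low and 2549 CPM in the high block of Ngn3KO cells, and at 10752 and 2767 CPM in Neurod1OE cells. Across single Gcg-high cells within these groups its correlation with the members' mean rank averaged 0.21, with a range of 0.16 to 0.29, and its part was not tested.

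Cells near the boundary carried an uneven share. The last 10 cells of the Ngn3KO low block, from number 94 on, held 27.5% of the block's Fos reads and 27.7% of its Junb reads, against 14.8% of its total reads. With the boundary placed 10 numbers lower, so that these cells join the high block, every measured member fell short of 2-fold in Ngn3KO, with Egr1 at 0.86, Ier2 at 0.81 and Jun at 0.84. With these cells left out, Jun, Egr1 and Ier2 were still at least 2-fold higher in the low block, with log2 ratios of 1.41, 1.5 and 1.51, and Fos was at 0.88. The median of Junb in the remaining low-block cells, 26.6 CPM, was then below that of the high block, 30.4 CPM. In Neurod1OE the last 10 low-block cells held 15.7% of the block's Fos and 15% of its Btg2 reads, against 8.74% of its total reads. Without them Fos was at 0.93, under 2-fold, while Jun, Junb, Egr1, Ier2 and Dusp1 lay between 1.37 and 2.20. In Ngn3KO the median of Egr1 over runs of 10 title numbers was between 44.2 and 416 CPM up to number 100 and between 4.84 and 65.3 CPM beyond it. Among Gcg-high cells the values were close to those over all cells: Egr1 was at 1.62 in Ngn3KO and 1.95 in Neurod1OE.

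**Figure D3:**
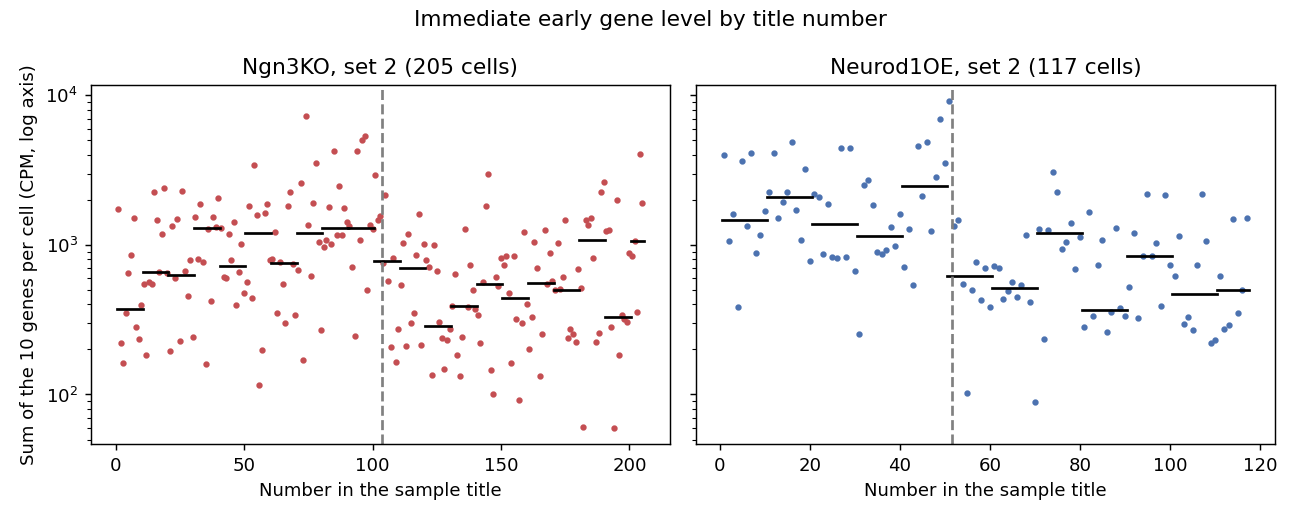
Sum of the 10 genes per cell (CPM, log axis) against the number in the sample title for Ngn3KO (left) and Neurod1OE cells (right) of set 2; black bars are medians over runs of 10 numbers and dashed lines the block boundaries. Medians of the low blocks are 1007 CPM in Ngn3KO and 1683 CPM in Neurod1OE, and those of the high blocks 522 CPM and 656 CPM. Btg2 weighs heavily in the sum. By summed reads it is 465 of 1202 CPM in the low and 374 of 699 CPM in the high block of Ngn3KO. In Neurod1OE it is 676 of 1980 CPM and 366 of 792 CPM.

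In set 3 the cells labelled Ngn3KO had less Junb and Egr1 than Neurod1OE cells. Of 8 measured members these 2 were at least 2-fold lower and 0 were higher, while 31.8% of all 10477 measured genes were lower and 5.96% higher, so the members' share is near the background. The members' median was -0.80 and that of all genes -0.56. Junb had a lowest, median and highest level of 0, 4.02 and 90.97 CPM in the 30 Ngn3KO cells, against 0, 14.1 and 987 CPM in the 95 Neurod1OE cells. The top of the distribution was missing in Ngn3KO, and 13.3% of its cells reached 50 CPM, against 37.9% of Neurod1OE cells. Its sums were 15.1 CPM (13.5 to 16.8) in Ngn3KO and 73.8 CPM (71.8 to 75.8) in Neurod1OE, a log2 ratio of -2.22. Egr1 had 0, 7.97 and 225 CPM in Ngn3KO cells, against 0, 21.5 and 662 CPM in Neurod1OE cells, and a log2 ratio of -1.54.

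Jun and Jund stood on the other side. Jun had 4.17, 53.9 and 347 CPM in Ngn3KO cells and 0, 15.6 and 574 CPM in Neurod1OE cells, and was read in every Ngn3KO cell, with a log2 ratio of 0.64. Jund had a log2 ratio of 0.58, and Ier2 one of -0.98, just short of 2-fold. Dusp1 was at -0.92 and Btg2 at -0.69. Scaling by TMM or DESeq2 moved every set 3 ratio up by 0.48 or 0.51. Junb and Egr1 were then still called lower, and Fosb, Jun and Jund were called higher. Fos was at -0.53 by its sums although its median cell was at 15.9 CPM in Ngn3KO and 12.2 CPM in Neurod1OE. The gene Junb (chr8:84974484-84978718, minus strand, GRCm38) overlaps Prdx2 on the opposite strand, and whether reads were counted by strand is not stated, so reads of the overlap may be shared or dropped. The same holds for Jun with the antisense gene Junos, Jund with Gm11175 and Dusp1 with Ergic1.

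The set 3 genotypes differ in cell state and in sex, since 29 of 30 Ngn3KO cells were Cpa1-high and all 30 were male, while 9 of the 15 Cpa1-high Neurod1OE cells were female. Among Cpa1-high cells Junb stayed lower, at 0, 3.36 and 90.97 CPM in Ngn3KO (lowest, median and highest of 29 cells), against 0, 19.5 and 987 CPM in Neurod1OE (15 cells), with a log2 ratio of -2.38 where 18% of genes were at least 2-fold lower and 4.37% higher. One Neurod1OE cell held 51.7% of the Junb reads of its group. Egr1 was at -0.70 here, no longer 2-fold apart, and Ier2 at -0.94. Jun and Jund were at 0.53 and 0.37, and the members' median was -0.12. Against the 6 male Cpa1-high Neurod1OE cells alone, Junb (-3.22), Egr1 (-1.84), Fos (-1.25) and Ier2 (-1.01) were 4 of 8 measured members at least 2-fold lower in Ngn3KO (log2 ratios), where 26.2% of genes were lower and 8.21% higher. The median cell's sum of the 10 genes was 590 CPM in Cpa1-high Ngn3KO cells, against 432 CPM in all and 880 CPM in the male Cpa1-high Neurod1OE cells. Neurod1 was at 14.3 CPM in these Ngn3KO cells and at 37.8 CPM in these Neurod1OE cells. The 7 mesenchyme markers summed to 1031 CPM in these Ngn3KO cells, with 0 of them at 0, against 80.9 CPM in these Neurod1OE cells, where Pdgfra, Dcn and Lum were at 0. By summed reads 6 of 6 measured markers were at least 2-fold higher. The Ngn3KO sum rests on a minority of cells, and the highest was at 17990 CPM, against 290 CPM in Neurod1OE. The median cell was at 83.2 CPM over all 30 Ngn3KO cells of set 3, and at 31.6 CPM in these Neurod1OE cells. The part of these markers in the result was not tested.

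Within Neurod1OE cells of set 3 the members differed between cell states rather than moving as a block. In Cpa1-high over Gcg-high cells Jun was higher and Dusp1 lower by at least 2-fold, and 6 other measured members were not, where 19.3% of all measured genes were higher and 26% lower. Jun was at 0, 36.1 and 172.2 CPM in Cpa1-high cells and at 0, 10.2 and 119.6 CPM in Gcg-high cells, a log2 ratio of 1.41 of the sums. Dusp1 was at 2.33 CPM in Cpa1-high and 18.5 CPM in Gcg-high cells, a log2 ratio of -2.55. That value owed much to a few cells: the median cell was at 2.09 CPM and 3.50 CPM, and 1 Gcg-high cell held 42.1% of the reads of its group. Ier2 reached 50 CPM in 13 of 15 Cpa1-high cells and in 6 of 31 Gcg-high cells, with a log2 ratio of 0.95.

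Cells with neither marker had the most of several members. Over Gcg-high cells, Jun (1.76), Ier2 (1.42) and Btg2 (1.38) were at least 2-fold higher on the log2 scale and Fos (-1.02) lower, where 19.2% of genes were higher and 12.3% lower. Btg2 had a lowest, median and highest level of 5.60, 764 and 3221 CPM in these cells and 41.2, 193.6 and 1245 CPM in Gcg-high cells. Ier2 had 0, 91.97 and 449.6 CPM in them and 0, 8.03 and 454 CPM in Gcg-high cells. For Fos a single Gcg-high cell held 41.4% of that group's reads, and the medians were 12.6 CPM and 13.1 CPM. The cells with neither marker also had more of all 7 cycling markers than Gcg-high cells. They held Neurog3, which marks endocrine progenitors, at 37.8 CPM, against 5.64 CPM in Gcg-high cells, with a median cell at 0 CPM in both. They were a mixed group. Their 8 duct and trunk markers summed to 2715 CPM, against 224 CPM in Gcg-high cells. Their 12 pan-endocrine markers ran from 16.8 to 19759 CPM per cell.

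**Figure D4:**
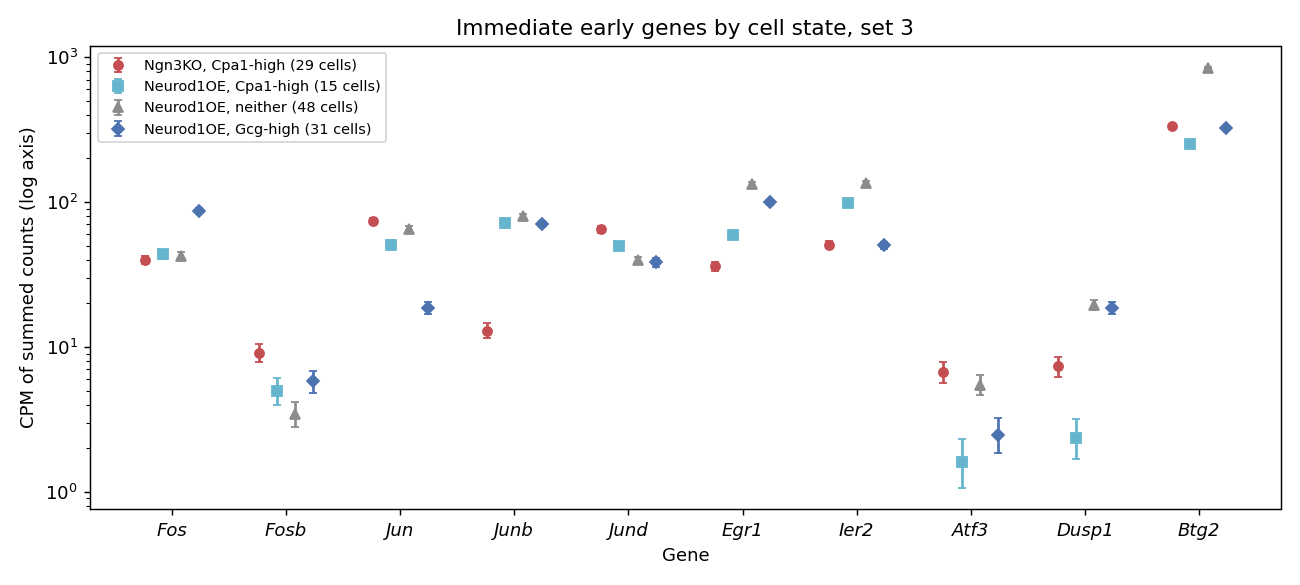
Summed level of each gene (CPM, log axis) in the cell states of set 3, with 95% exact Poisson intervals that cover counting error only. Ngn3KO Cpa1-high cells lie lowest for Junb, Gcg-high Neurod1OE cells lie lowest for Jun and highest for Fos, and Neurod1OE cells with neither marker lie highest for Btg2, Ier2 and Egr1.

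The same cell state differed between sets, mostly against the low block of set 2. In Gcg-high Neurod1OE cells of set 3 over set 2, 6 of 9 measured members were at least 2-fold lower and 0 higher, where 8.32% of genes were lower and 7.35% higher. Jun was at 18.5 CPM in set 3 and 110.3 CPM in set 2, a log2 ratio of -2.51. Junb was at -1.30, and Ier2, Egr1, Fos and Fosb were between -1.06 and -1.03. Jund was at -0.11, and the members' median at -1.03, against -0.03 for all genes. Against the low block of set 2 alone, 7 of 9 were lower and 0 higher, where 12.3% of genes were lower and 11.7% higher, with a members' median of -1.43. Against the high block alone, 1 of 9, Jun (-1.06), was lower and 0 higher, where 7.65% of genes were lower and 7.7% higher, with a members' median of -0.10. There Egr1 was at 0.26, Ier2 at 0.18 and Junb at 0.11. The set is a label on cells and matrices, and the genotype, age and cell state were alike here. The summed cycling markers were not: the 7 markers came to 21.1 CPM in set 3 and 739.5 CPM in set 2. These sums rest on a minority of cells. The median cell was at 5.94 CPM in set 3 and, over all Neurod1OE cells of set 2, at 20.5 CPM. By the cycling gate given below, 3 of 31 cells were cycling in set 3, and 16 cells against 95 others in set 2. Of the Gcg-high Neurod1OE cells 5 were female and 26 male in set 3, and 65 were female and 45 male in set 2. These differences cannot be told apart from the set.

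Cycling Gcg-high cells differed in no member in Ngn3KO and in 2 members in Neurod1OE. Cells were called cycling when 6 cell cycle genes summed to 100 CPM or more. In Ngn3KO cells of set 2, 0 of 8 measured members were 2-fold apart between 39 cycling cells and the others, where 7.69% of genes were higher and 5.39% lower in cycling cells. In Neurod1OE cells, Fosb (-2.19) and Junb (-1.66) were lower on the log2 scale in 16 cycling cells than in 95 others, where 10.6% of genes were lower and 12.5% higher. Of the cycling Neurod1OE cells 5 of 16 lay in the low block, against 41 of the 95 others, and the part of the blocks in this result was not tested. Btg2 was at -0.81 in Ngn3KO and -0.71 in Neurod1OE, but the blocks of Neurod1OE went in opposite directions. In the high block its summed level was higher in the 11 cycling cells (452.9 CPM) than in the 54 others (375.0 CPM). In the low block it was lower in the 5 cycling cells (248.8 CPM) than in the 41 others (765.3 CPM). A single cell held 55.6% of the Btg2 reads of these 5 cells. In Ngn3KO the summed level was lower in the cycling cells of both blocks.

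By the share of cells with a read, Atf3, a stress-induced member of the ATF/CREB family, was almost a set 3 gene. It had a read in 82 cells of set 3 (65.6%) and in 4 of 322 cells of set 2 (1.24%). Its levels were low in most of these cells, and 63 of the 82 cells of set 3 held 4 reads or fewer. Atf3 reached its highest level, 70.9 CPM from 24 reads, in a single cell of set 2. In set 3 its lowest, median and highest levels were 0, 3.21 and 54.7 CPM in Ngn3KO and 0, 2.14 and 46.9 CPM in Neurod1OE cells, summing to 6.48 and 3.55 CPM, below the level called measured. In the low block of Ngn3KO set 2 cells it had no read in any cell, which at 3 counts allows up to 0.0692 CPM. The other 10 genes with a read in over 50% of set 3 cells and under 3% of set 2 cells included 5 globin genes, Hbb-y (95.2% of set 3 cells and 0% of set 2 cells), Hba-x, Hba-a1, Hba-a2 and Hbb-bt, with Dmbt1, Lcn2, Pigr and Wfdc18. No gene showed the reverse pattern. Whether the low Atf3 reads of set 3 come from the cells themselves or from RNA shared in the preparation was not tested.

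Across single Gcg-high cells of set 2 the members moved together weakly, with a tighter core in 3 of 4 groups. Spearman's correlation of CPM was taken within each genotype and block (in Ngn3KO 100 cells of the low block and 1 more of the high block, in Neurod1OE 46 and 65) and averaged. Over the 45 pairs (36 in the low blocks, where Atf3 could not be ranked) the mean was 0.17 and 0.10 in the low and high block of Ngn3KO, 0.17 and 0.16 in Neurod1OE, and 0.15 over the 4 groups, and 37 pairs had a mean above 0. For 12 housekeeping genes in the same cells the mean was between 0.023 and 0.096. These are descriptions of cells that share sorting, plate handling and depth.

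The closest pair was Fos and Egr1, with a mean of 0.44 and a range of 0.23 to 0.65 over the 4 groups. Egr1 with Ier2 (0.33), Jun with Junb (0.32), Junb with Egr1 (0.32) and Jun with Ier2 (0.31) followed, and these 5 were the only pairs above 0.3. Egr1 had the highest mean correlation with the other members, at 0.24, and Fos had 0.21. Jund (0.071), Btg2 (0.080), Dusp1 (0.079) and Atf3 (0.023) stood outside this core. Atf3 had reads in so few of these cells that only 36 of the 45 pairs could be computed in all 4 groups. Fosb (0.14) lay between. With Fos and with Egr1 it had 0.27 each, more than some pairs within the core, such as Fos with Jun (0.23). Averaged over Fos, Jun, Junb, Egr1 and Ier2, a choice made after the values were seen, the mean was 0.30. By group it was 0.34 in the low and 0.16 in the high block of Ngn3KO, and 0.38 and 0.31 in Neurod1OE. The promoters of Fos, Btg2 and Dusp1 shown above share TGACGT, and Fos with Btg2 had a mean of 0.10, Fos with Dusp1 0.13 and Btg2 with Dusp1 -0.0048.

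**Figure D5:**
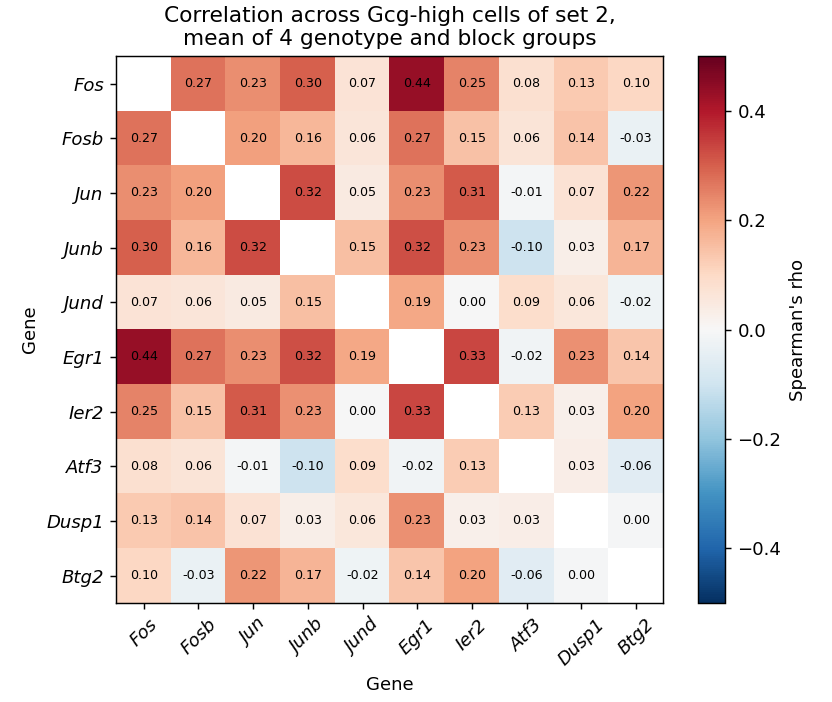
Spearman's correlation of CPM across Gcg-high cells of set 2 for each pair of the 10 genes, averaged over the 2 blocks of each genotype. Fos, Jun, Junb, Egr1 and Ier2 form the warmest square, led by Fos with Egr1 at 0.44. Jund, Atf3 and Dusp1 are near 0 with most others. Btg2 reaches 0.22 with Jun and 0.20 with Ier2 and lies below 0 with Fosb, Jund, Dusp1 and Atf3.

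Cells with many members at 50 CPM or more were common in the low blocks. At least 4 of the 10 genes reached 50 CPM in 55% of low-block Ngn3KO cells (95% Clopper-Pearson interval 44.7 to 65%), against 28.7% of high-block cells (20.1 to 38.6%). In Neurod1OE the shares were 84.8% (71.1 to 93.7%) in the low and 47.7% (35.1 to 60.5%) in the high block. These intervals treat cells as independent draws and do not cover the spread between animals. The cut was the same for every gene, and Btg2 alone reached it in most cells. Its shares were 91% in the low and 83.2% in the high block of Ngn3KO, and 97.8% and 96.9% in Neurod1OE. The members' summed CPM did not follow depth, with a correlation with the cell's total between -0.073 and 0.0067 in the 4 groups. It was lower in cells with more Gcg, with correlations of -0.36 and -0.12 in the low and high block of Ngn3KO and -0.48 and -0.20 in Neurod1OE. Gcg itself stood at 91217 and 83261 CPM in these Ngn3KO cells and at 67746 and 74858 CPM in these Neurod1OE cells, and its part in the relation was not tested.

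Among 9187 other genes read in at least 25% of the cells of each group, the pattern most like that of the members, by correlation with their mean rank, was that of Meis2 (0.29, a homeobox transcription factor). Ctxn1, Txnip (a thioredoxin-binding protein), Pcyt1b, Hist1h2bg (a histone H2B), Col9a2, H3f3b (a histone H3), Cldn4 (a tight junction protein), Tsc22d1 and Tmsb10 came next, down to 0.25. None reached 0.3. Of 19 other immediate early genes that could be ranked, 1, Gadd45g (0.20), was among the 50 highest, and their median was 0.056, against 0.0025 over all ranked genes.

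The difference between blocks reached some other immediate early genes as well. Of 50 others, 22 were measured in Ngn3KO cells, and 6 were at least 2-fold higher in the low block and 1 lower, with a median log2 ratio of 0.34. In Neurod1OE cells 4 of 21 were higher and 2 lower, with a median of 0.31. Gadd45g, a stress-induced growth arrest gene, was at 96.2 CPM in the low and 32.96 CPM in the high block of Ngn3KO cells and at 87.5 and 35.3 CPM in Neurod1OE cells. Klf4, a Krüppel-like factor, was at 1.84 on the log2 scale in Ngn3KO, and Ier5 at 2.38 in Neurod1OE. Nr4a1, an orphan nuclear receptor, went the other way in Ngn3KO, with 1 read in the low block and 12.2 CPM in the high block. Over all measured genes 6.84% were higher and 5.14% lower in the low block of Ngn3KO, and 6.98% and 7.19% in Neurod1OE, so the counts of lower genes and those of the next lists are near these shares. Of the 19 measured kinases and factors upstream of these genes, 0 in Ngn3KO and 1 in Neurod1OE were at least 2-fold higher in the low block, and 0 and 2 were lower. Of the heat shock genes, Hsph1, a co-chaperone, was at 0.88 in Ngn3KO and 0.75 in Neurod1OE, and 1 of 10 in Ngn3KO (Hspa1b, 3.57) and 0 of 9 in Neurod1OE were 2-fold higher. The 12 housekeeping genes had medians of -0.17 and -0.07.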

How the data were processed

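Gene expression was measured by Smart-seq3 in 447 single cells. The authors deposited 1 matrix per set of unnormalised counts, all whole numbers. Per the submitters' processing notes the tools were Trimmomatic 0.39, HISAT2 2.1.0 and featureCounts 2.0.0 with the build mm10; the annotation, strand setting, use of molecule barcodes and cell filters are not given in the sources used here. Rows without a gene name held 0.0026% of all reads and were left out of totals, as were 92 spike-in rows with 24 reads. Mitochondrial genes and spike-in shares, planned as measures of cell quality, were not analysed here. No cell was removed, since all had 1000 or more detected genes, and no doublet caller was run on single sorted cells.

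Counts were summed per group and scaled to 1e+06 by plain totals. A gene was measured at 10 CPM or more with reads in 10% of the cells of either group, and called at 2-fold, on log2 ratios after adding 1 CPM. Each genotype counted as 1 sample, so no p-value was computed. Levels have 95% exact Poisson intervals, which cover counting error only and may be too narrow, since reads of a well are not independent molecules. Shares of cells have Clopper-Pearson intervals, which treat the cells as independent draws. Neither kind covers the spread between animals. Cells were thinned to 165298 reads, the 10th percentile of totals, for shares at equal depth. Block boundaries best separate cells at 10 CPM or more of Gm12338 from the rest. Sex was called by the larger of Xist and the summed Y-linked genes, at 1 CPM or more.

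The scripts were tested on simulated data. Members, gene lists, gates and blocks were chosen with earlier results of these data known. The text names the 10 members, up to 5 genes of each list with the largest ratios in a comparison, and the 10 genes most like the members across cells; not every gene so chosen is given. Alternatives covered scaling (TMM, DESeq2 size factors), pseudocounts, filters, folds, median cells, single top cells, depth, sex, state and block boundaries. Scaling factors came from DESeq2 1.42.0 and edgeR 4.0.16 (R 4.3.3), and all else was computed in Python 3.11.15 (numpy 2.4.6, pandas 2.3.3, scipy 1.17.1, matplotlib 3.10.9). Promoters came from RefSeq (GRCm38.p6) and gene positions from GENCODE on GRCm38.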

Additional observations from a re-analysis of the deposited data

Results flagged for a closer look

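Jun went in opposite directions between genotypes in the 2 sets. Its log2 ratio of Ngn3KO over Neurod1OE was 0.64 in set 3 and -0.79 in set 2, a difference of 1.44 that was not tested, since each group is 1 sample. Cell states differ between the sets, as set 3 Ngn3KO cells were Cpa1-high and set 2 cells Gcg-high. Among female cells of set 2 alone Jun was higher in Ngn3KO, at 73.5 CPM against 62.5 CPM in Neurod1OE.

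Dusp1 went in opposite directions in the blocks of set 2. Its log2 ratio of Ngn3KO over Neurod1OE was -0.85 in the low and 0.52 in the high block, a difference of 1.36 that was not tested. The median cell held no Dusp1 read in any of these 4 groups. A single cell held 13.6% and 7.37% of the reads in the low and high block of Ngn3KO, and 23.2% and 24.7% in Neurod1OE.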

How the results depend on the processing

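No paired analysis was possible because the numbers in the titles name single cells and each genotype is 1 sample per set; leaving out replicates was likewise not possible. In set 2 the 1 member called between genotypes became 5 with a 1.5-fold threshold, 4 by the median cell, 2 in the low block and 0 in female cells, and Ier2 was the 1 called member under the other 12 alternatives. In set 3 the 2 called members became 5 with TMM, 5 with DESeq2 size factors, 6 at 1.5-fold, 4 by the median cell, 4 without each gene's top cell, 4 in male cells, 1 in Cpa1-high cells and 4 in male Cpa1-high cells, where Neurod1OE has 6 cells. Junb stayed lower in all 15 alternatives, between -3.22 and -1.59, and Egr1 between -1.84 and -0.70. Of the 2 members called between Cpa1-high and Gcg-high cells, 1 passed a filter of 50 CPM, and 5 were called at 1.5-fold, 5 without each gene's top cell and 4 after thinning. Between blocks the 4 members called in Ngn3KO became 2 by the median cell and 0 with the boundary 10 numbers lower, and between 3 and 5 under the other alternatives; in Neurod1OE the 6 called members became between 4 and 7. Except where the construction of an alternative shows it (fewer cells, a lower threshold), the cause of a change was not tested. The mean correlation of 0.15 became 0.21 over members read in at least 50% of cells and 0.30 over Fos, Jun, Junb, Egr1 and Ier2, and lay between 0.15 and 0.16 otherwise. The alternatives for the blocks, the male Cpa1-high cells and the 5-gene correlation were chosen after seeing the data. Fosb, Dusp1 and Atf3 had no read in the median cell of set 2; at 1 thinned depth Fosb was read in 24.7% of Ngn3KO cells of set 2, against 29.3% at full depth. The 6 members lower in Gcg-high Neurod1OE cells of set 3 than of set 2 became 7 against the low block and 1 against the high block, also chosen after seeing the data.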

Other observations

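Btg2, the member read in every cell, was set beside genes of the endocrine programme and of division. With Gcg its Spearman correlation was negative in the 4 groups of Gcg-high cells of set 2, between -0.27 and -0.033, and in 7 of the 8 groups of cells in all. With Neurod1 it was positive in 7 of 8 groups, between 0.016 and 0.11 in set 2. In the 48 Neurod1OE cells of set 3 with neither marker, its Spearman correlation was 0.29 with Neurod1, 0.28 with Insm1 (an endocrine zinc finger factor) and -0.37 with Mki67 (a proliferation marker). In the 31 Gcg-high cells of the same genotype and set the values were -0.14, -0.36 and 0.17. In Cpa1-high cells Btg2 with Mki67 was -0.42 in 29 Ngn3KO and -0.67 in 15 Neurod1OE cells, and with Neurod1 0.38 and 0.20. In the 4 groups of Gcg-high cells of set 2, Btg2 with Mki67 lay between -0.15 and -0.025, and with Cdkn1a, a p53 target that stops the cell cycle, between -0.18 and 0.37. These pairs were chosen with earlier results known, and the cells share sorting, depth and plate handling.

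By the mean over all pairs, co-movement outside set 2 was looser in Gcg-high and in neither cells, but not in Cpa1-high cells. In set 2 the group means lay between 0.10 and 0.17. The mean over the 45 pairs was 0.13 in 29 Cpa1-high Ngn3KO cells and, in Neurod1OE cells of set 3, 0.24 in 15 Cpa1-high, 0.081 in 48 neither and 0.080 in 31 Gcg-high cells. Housekeeping genes had means of 0.13, 0.30, 0.065 and 0.072 in the same groups. The pairs differ in part, since the low blocks of set 2 have 36 pairs, without Atf3. Over Fos, Jun, Junb, Egr1 and Ier2 the mean was 0.22 in Gcg-high and 0.23 in neither cells of set 3. In the set 2 groups it lay between 0.16 and 0.38. In Ngn3KO low-block cells the members' sum had a correlation of 0.37 with the title number, against 0.13 in the high block, and -0.090 and -0.056 in the blocks of Neurod1OE.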
